A study of Mus musculus with 24 samples.

Results

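The mouse genes 2310057J18Rik, Ankrd22, Abpb, Acox2 and Pkhd1l1 were read in the mammary tissue of mice that develop tumors and of control mice. They are 5 of the 37991 genes of the count table, matched by Ensembl identifier to GENCODE M1. They were picked because at 1 week or more all 3 control counts were 3 or less while the gene was expressed in the tumor mice, so the difference between the genotypes chose them and its values are given as a description, with no test. By the counts, 3 of the 5 were low or absent in the controls throughout (2310057J18Rik, Ankrd22 and Abpb). Acox2 had a low control level at 3 weeks and 0 counts at week 10 only, and Pkhd1l1 overlapped between controls and tumor mice at every week but week 10.

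RNA-seq libraries were made from total RNA of female mammary glands or tumors after removal of ribosomal RNA. PyMT mice were F1 females heterozygous for the MMTV-PyMT transgene, in which the long terminal repeat of the mouse mammary tumor virus drives the polyoma middle T antigen in mammary epithelium, and FVB females without the transgene were the controls. Each genotype had 3 mice per age, at 6 weeks (hyperplasia in PyMT), 8 weeks (adenoma/MIN), 10 weeks (early carcinoma) and 12 weeks (late carcinoma), which gave 24 libraries. Tissue was taken in bulk, so fewer cells of a type and less RNA per cell cannot be told apart.

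The library totals ran from 6969375 to 13516601 counts. In 13 of the 24 libraries (6 PyMT, 7 FVB) low counts came in steps, called packets here, of 8 to 25 counts. A count of 0 in such a library is weaker evidence of absence than elsewhere, and at week 10 all 3 FVB libraries were of this kind. Of the 14918 genes that passed the filter on low values, 97 (0.650%) were at 0 in all 3 FVB libraries of week 10, against 7, 5 and 9 at weeks 6, 8 and 12. Markers of cell types differed between the genotypes as well. The summed level of 14 luminal epithelial markers was 3485 to 6062 CPM (counts over the TMM-scaled library size times 1000000) in PyMT and 653 to 2710 in FVB, that of 10 adipocyte markers 141 to 1778 and 5901 to 14197, and that of 7 fibroblast markers 2444 to 5448 and 5994 to 21845. Their part in the differences between the genotypes was not tested.

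The 5 genes have little in common by their known roles. Abpb encodes the beta subunit of androgen-binding protein, a secretoglobin of mouse saliva and tears that pairs with an alpha subunit such as Abpa. 2310057J18Rik, which RefSeq also lists as Leg1, encodes a protein of the LEG1 family, whose members are secreted. Ankrd22 encodes a small ankyrin repeat protein. Acox2 encodes a peroxisomal acyl-CoA oxidase that acts on bile acid intermediates. Pkhd1l1 encodes fibrocystin-L, a very large membrane protein related to the product of the polycystic kidney disease gene Pkhd1.

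All 5 are protein-coding genes, given here on mm9. 2310057J18Rik (ENSMUSG00000015519) lies on the minus strand at chr10:28692094-28706109 with 7 exons. Ankrd22 (ENSMUSG00000024774) lies on the minus strand at chr19:34197039-34240543 with 8 exons, and its 3′ end overlaps exons of Lipm on the opposite strand. Abpb (ENSMUSG00000066584), the RefSeq gene Scgb2b27, has 2 exons on the minus strand at chr7:34796951-34798961. Acox2 (ENSMUSG00000021751) has 17 exons on the minus strand at chr14:9058025-9091867, and Pkhd1l1 (ENSMUSG00000038725) has 78 exons on the plus strand at chr15:44289099-44428689. The share of exonic 32-base words found once in mm9 was 93.9% for 2310057J18Rik, 91.7% for Ankrd22, 97.8% for Acox2 and 100% for Pkhd1l1.

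The windows around the annotated starts, from 250 bases before to 50 after, are shown to compare the sequence at which these genes begin. RefSeq (GRCm38.p6) had such windows for 4 of the 5 genes, each of which matched mm9 exactly once. Capitals mark matches, on either strand, to TTCNNNGAA (the form of a STAT site), TGANTCA (an AP-1 site) or TATAAA, a core promoter element. These 3 motifs do not overlap each other in the windows shown.
Ankrd22, chr19:34240482-34240781, minus strand: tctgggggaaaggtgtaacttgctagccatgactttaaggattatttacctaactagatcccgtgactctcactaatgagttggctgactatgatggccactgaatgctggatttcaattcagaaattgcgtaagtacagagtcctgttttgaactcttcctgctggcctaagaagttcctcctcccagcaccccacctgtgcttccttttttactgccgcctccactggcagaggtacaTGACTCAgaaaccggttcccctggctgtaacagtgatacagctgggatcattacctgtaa
Acox2, chr14:9091484-9091783, minus strand: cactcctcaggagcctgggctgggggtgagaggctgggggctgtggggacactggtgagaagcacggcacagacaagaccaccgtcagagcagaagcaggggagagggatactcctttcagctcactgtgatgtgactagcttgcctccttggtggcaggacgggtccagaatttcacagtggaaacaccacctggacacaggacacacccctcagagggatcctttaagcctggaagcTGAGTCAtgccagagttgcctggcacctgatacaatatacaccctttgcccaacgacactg
Abpb, chr7:34798912-34799211, minus strand: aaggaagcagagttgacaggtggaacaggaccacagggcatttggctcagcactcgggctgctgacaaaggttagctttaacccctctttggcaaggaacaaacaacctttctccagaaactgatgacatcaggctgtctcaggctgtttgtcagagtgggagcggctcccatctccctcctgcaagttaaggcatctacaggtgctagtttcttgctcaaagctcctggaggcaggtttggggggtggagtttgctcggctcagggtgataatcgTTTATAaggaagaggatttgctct
2310057J18Rik, chr10:28706063-28706362, minus strand: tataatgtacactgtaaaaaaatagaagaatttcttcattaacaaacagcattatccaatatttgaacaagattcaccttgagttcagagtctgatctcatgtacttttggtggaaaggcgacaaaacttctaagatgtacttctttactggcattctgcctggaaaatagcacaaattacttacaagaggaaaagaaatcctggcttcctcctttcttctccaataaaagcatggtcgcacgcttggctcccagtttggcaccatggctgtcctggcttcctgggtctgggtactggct
TGANTCA occurred just before the RefSeq start in both Ankrd22 (TGACTCA, first base at -10) and Acox2 (TGAGTCA, first base at -11), where +1 is the RefSeq start. A second RefSeq start of Acox2 lies 180 bases downstream of the first, and its window held the same TGAGTCA, there at -191, and 1 more match at +20. The first RefSeq start lies 334 bases downstream of the GENCODE M1 start for Acox2, and 12 bases for Ankrd22. By GENCODE M1 these matches therefore lie inside the genes and not before the start. TATAAA occurred in the Abpb window alone, on the reverse strand at +27, and none of the 3 motifs occurred in that of 2310057J18Rik. Of all 32851 RefSeq windows of this length, 7.81% held TGANTCA, 13.6% TATAAA and 8.3% TTCNNNGAA, which none of the windows shown held.

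2310057J18Rik had the widest range of the 5 genes among the PyMT mice. Its PyMT counts for replicates 1, 2 and 3 were 468, 1301 and 3383 at week 6, 413, 35117 and 32 at week 8, 957, 709 and 1182 at week 10, and 891, 183 and 2586 at week 12. The FVB counts were 0, 9 and 10 at week 6, 1, 5 and 1 at week 8, 2, 1 and 1 at week 10, and 3, 0 and 2 at week 12. Every PyMT library thus exceeded every FVB library, but the highest and the lowest PyMT library, replicates 2 and 3 of week 8, were of the same age. As TMM-scaled CPM they were at 3730 and 2.27, a 1645-fold range, while the 3 mice of week 10 lay within 1.40-fold of each other.

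At week 6 the mean level of 2310057J18Rik was 145 ± 91.0 CPM in PyMT against 0.616 ± 0.543 in FVB (SD, n = 3), a 235-fold difference. At week 10 it was 103 ± 17.4 against 0.153 ± 0.0326 (669-fold), and at week 12 137 ± 132 against 0.241 ± 0.236 (570-fold). The FVB sums behind the last 2 ratios were only 4 and 5 counts, and counting error alone allowed 261- to 2454-fold and 244- to 1756-fold (95% exact Poisson intervals of the FVB sum). At week 10 each FVB count lay below the packet size of its library (12, 13 and 19 counts). At week 12 FVB replicate 2, with 0 counts, had packets of 9 counts. The intervals do not cover this, so their lower ends are not firm bounds. Leaving out 1 library moved the ratio to between 157-fold (without FVB replicate 1) and 353-fold (without FVB replicate 3) at week 6, and to between 270-fold (without PyMT replicate 3) and 1100-fold (without FVB replicate 1) at week 12. At week 8 the PyMT mean of 1260 ± 2140 CPM rested on 1 mouse, replicate 2, whose library had packets of 23 counts. The log2 ratio of that week was 11.95 with it and 6.26 without it, and 13.15 without FVB replicate 2. The same mouse had the highest luminal sum (6062 CPM), the lowest adipocyte sum (141) and the lowest fibroblast sum (2444) of all PyMT mice, while the mouse with the least 2310057J18Rik had the highest fibroblast sum (5448) and a luminal sum of 4131. These are the levels of 2 mice, and the relations over all 12 PyMT mice are given with those between the genes.

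Abpb had the highest median level per length over the 12 PyMT mice. By week means it was above 2310057J18Rik at weeks 10 (131 ± 53.1 against 55.2 ± 9.39 CPM per kb of exon) and 12 (133 ± 47.7 against 73.9 ± 71.0), and below it at weeks 6 (54.4 ± 35.3 against 78.0 ± 49.0) and 8 (115 ± 161 against 678 ± 1152). Its counts in PyMT were 325, 1200 and 1131 at week 6, 528, 4409 and 127 at week 8, 1036, 2092 and 2472 at week 10, and 1521, 1170 and 2677 at week 12. In FVB they were 14, 18 and 3, then 1, 4 and 3, then 1, 1 and 0, and last 2, 1 and 2. The lowest PyMT library was therefore 127 counts and the highest FVB library 18, and FVB counts were above 4 at week 6 only. The mean was 84.8 ± 55.1 CPM in PyMT against 1.29 ± 0.867 in FVB at week 6, 179 ± 252 against 0.361 ± 0.200 at week 8, 205 ± 82.9 against 0.0667 ± 0.0599 at week 10, and 208 ± 74.4 against 0.237 ± 0.0854 at week 12. The ratios were 65.5, 496, 3076 and 878. That of week 8 rested on PyMT replicate 2, the same mouse as for 2310057J18Rik, and was 95.1 without it. That of week 6 was 42.9 without PyMT replicate 2. The ratio of week 10 stood on 2 FVB counts, with a counting interval of 851- to 25396-fold. It was 2051 without FVB replicate 3 and 4878 without FVB replicate 2. The FVB libraries of that week had packets of 12, 13 and 19 counts. Each FVB count of Abpb lay below these, which the counting interval does not cover, so its lower end is not a firm bound.

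The neighbouring gene of Abpb is Abpa, the alpha subunit, 7541 bases away on the opposite strand. Abpa had 1, 160 and 119 counts in PyMT at week 6, 52, 673 and 1 at week 8, 788, 102 and 193 at week 10, and 145, 108 and 926 at week 12. In FVB it had 0 to 3 counts. Abpa was thus detected in 10 of 12 PyMT libraries above the FVB range, and the 2 libraries at 1 count were also those with the least Abpb. The alpha subunit made up 0.307% to 43.2% of the counts of the pair, and it had the larger shares in week 10 replicate 1 (43.2%) and week 12 replicate 3 (25.7%). Of 9 other secretoglobin genes listed, Abpa among them, 4 had no count in any of the 24 libraries and none passed the filter on low values. Abpg, an Abp gene outside that list, had 1.96 ± 0.821 CPM in PyMT at week 10 and 0.0761 ± 0.0662 at week 12, and was at 0 in PyMT at weeks 6 and 8 and in FVB throughout. Copies of the Abp genes resemble each other, and 85.3% of the exonic 32-base words of Abpb and 85.4% of those of Abpa occurred once in mm9, so a part of these counts could belong to relatives.

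Ankrd22 was the most even of the low-control genes. PyMT libraries held 307, 178 and 485 counts at week 6, 202, 559 and 225 at week 8, 190, 118 and 198 at week 10, and 238, 75 and 156 at week 12. In FVB, 10 of 12 libraries held no count, and the others held 7 at week 6 and 2 at week 8. The groups did not overlap at any week. The PyMT mean was 28.8 ± 6.54 CPM at week 6 and 32.7 ± 23.3 at week 8, against 0.323 ± 0.559 and 0.0873 ± 0.151 in FVB, where each mean stood on 1 library. The ratios were 89.3 and 375, the second with a counting interval of 104- to 3095-fold from 2 FVB counts. At week 8 FVB replicates 1 and 2, with 0 counts, had packets of 18 and 8 counts. The interval does not cover this, so its lower end is not a firm bound. With 1 library left out the ratio of week 6 ran from 59.5 (without FVB replicate 2 or 3) to 101. That of week 8 ran from 77.2 (a bound from the floor, without FVB replicate 3) to 471. At weeks 10 and 12 it was 18.2 ± 3.37 and 18.3 ± 9.49 CPM with all FVB libraries at 0. With a floor of 3 counts per library, Ankrd22 was at least 48.4-fold higher at week 10 and at least 42.9-fold at week 12. With 3 packets as the floor these bounds were 3.10- and 11.5-fold. Lipm, whose exons overlap those of Ankrd22 on the other strand, had 146 counts in FVB replicate 2 of week 12, where Ankrd22 had 0, and 0 counts in PyMT replicate 2 of week 8, where Ankrd22 had 559. Both of these libraries had packets, and the overlap lies only at the 3′ end of Ankrd22. How reads from the overlap were assigned was not tested.

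Acox2 had a low but regular level in FVB at 3 of 4 weeks, and 11 of 12 PyMT libraries held 205 counts or more. Its PyMT counts were 282, 205 and 267 at week 6, 237, 369 and 433 at week 8, 374, 293 and 230 at week 10, and 29, 236 and 250 at week 12. Its FVB counts were 6, 35 and 31 at week 6, 20, 13 and 10 at week 8, and 12, 17 and 12 at week 12. At week 10 all 3 FVB counts were 0, and only this week met the rule. At week 6 the means were 24.1 ± 5.70 CPM in PyMT and 2.40 ± 1.36 in FVB, followed by 32.2 ± 6.36 and 2.00 ± 0.841 at week 8, and 20.3 ± 14.7 and 1.95 ± 0.492 at week 12, which gave ratios of 10.0, 16.1 and 10.4. The groups did not overlap at these weeks, although PyMT replicate 1 of week 12, at 3.47 CPM, came near the highest FVB library of that week at 2.48. At week 10 the PyMT mean of 32.8 ± 8.33 CPM was at least 87.3-fold higher by the floor of 3 counts, and 5.60-fold by that of 3 packets.

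Pkhd1l1 did not follow its label. In PyMT it had 29, 74 and 32 counts at week 6, 7, 0 and 22 at week 8, 28, 59 and 79 at week 10, and 4, 10 and 40 at week 12. In FVB it had 29, 17 and 14 at week 6, 74, 12 and 7 at week 8, and 13, 37 and 14 at week 12. It was 0 in the 3 FVB libraries of week 10, and at the other 3 weeks the genotypes overlapped. The mean was 4.69 ± 3.63 CPM in PyMT against 2.33 ± 1.45 in FVB at week 6, 0.783 ± 0.780 against 4.47 ± 5.55 at week 8, and 2.04 ± 2.05 against 3.06 ± 2.02 at week 12. The ratio was thus above 1 at week 6 (2.01) and below 1 at weeks 8 (0.175) and 12 (0.666). At week 6 the ratio was 1.12 without PyMT replicate 2 and 3.14 without FVB replicate 1. At week 8 it was 0.0884 without PyMT replicate 3. Without FVB replicate 1 the log2 ratio of week 8 went from -2.51 to -0.70. At week 12 it went from -0.59 to -1.80 without PyMT replicate 3, and to 0.10 without FVB replicate 2. At week 10 the level was 6.06 ± 2.72 CPM, at least 16.1-fold over the floor of 3 counts but 1.03-fold over that of 3 packets.

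**Figure D1:**
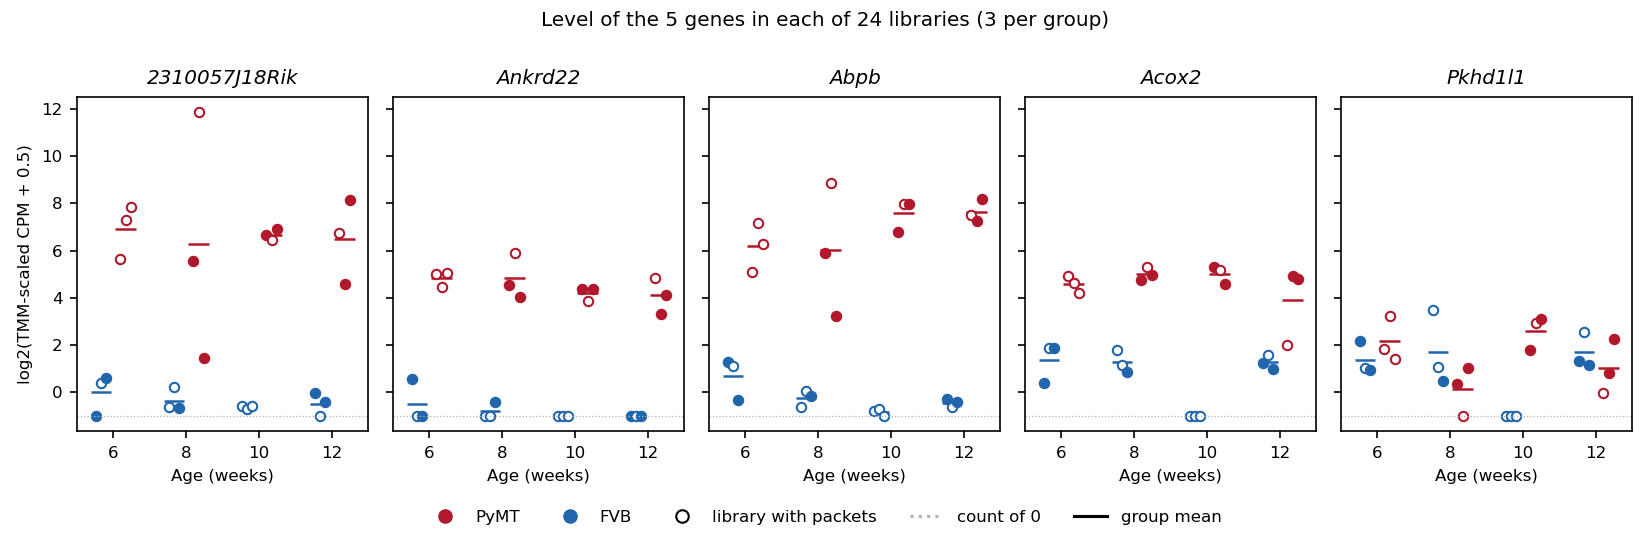
Level of the 5 genes in each of 24 libraries by age in weeks, as log2 of TMM-scaled CPM plus 0.5. Points are mice, open points are libraries with packets, bars are means of 3 mice and the dotted line is a count of 0. 2310057J18Rik, Ankrd22, Abpb and Acox2 stand apart from FVB at every week, while Pkhd1l1 overlaps FVB at weeks 6, 8 and 12.

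The number of genes without overlap at a week put these patterns beside the rest of the genome. All PyMT libraries exceeded all FVB libraries in 4 of the 5 genes at weeks 6, 8 and 12 and in 5 of 5 at week 10. Among all tested genes this held for 15.8%, 19%, 19.9% and 22.5% at weeks 6, 8, 10 and 12. As the genes were chosen on this contrast, nothing can be read from the higher share among them. In the 11 libraries without packets, the 6 PyMT libraries were all above the 5 FVB libraries in 2310057J18Rik, Ankrd22, Abpb and Acox2. In Pkhd1l1 2 of 6 were. Acox2 had 230 to 433 counts in PyMT and 6 to 31 in FVB in these libraries, and Pkhd1l1 had 7 to 79 and 7 to 29. The PyMT libraries of this set came from weeks 8, 10 and 12 and the FVB libraries from weeks 6, 8 and 12, so ages were not matched. No share over all tested genes is given for this set, and nothing is read from the order of genes chosen on this contrast.

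A search of the whole table by the rule, with all PyMT libraries of the week at 1 CPM or more, found 232 genes. Week 6 gave 20 of them, week 8 gave 46, week 10 gave 145 and week 12 gave 72, and 112 met it at week 10 only. Of the 5 genes, Acox2 and Pkhd1l1 met it at week 10 only, 2310057J18Rik and Abpb at weeks 10 and 12, and Ankrd22 at weeks 8, 10 and 12. Just inside the limit of 3 counts was Cyp24a1, the vitamin D 24-hydroxylase, with 0, 0 and 3 FVB and 255, 27 and 201 PyMT counts at week 6. Just outside was Chrm3, a muscarinic acetylcholine receptor, with 3, 2 and 4 FVB and 178, 243 and 432 PyMT counts at week 12.

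Luminal epithelial markers were higher in PyMT, and their fitted changes are given beside the ratios of means of the 5 genes. The 5 were chosen for a low FVB count and expression in PyMT, so a ratio above that of the markers follows from the choice and nothing is read from it. Of 14 markers 6, 4, 9 and 8 were called higher and 1, Foxa1, was called lower at weeks 6, 8, 10 and 12. Calls had an adjusted p under 0.05 by edgeR and changed more than 2-fold. In either direction 50%, 35.7%, 71.4% and 64.3% of the markers were called, against 10%, 9.95%, 13.9% and 20.7% of all tested genes. Among the markers without a call, Krt19 was at -0.82 (week 6) and -1.18 (week 12) and Elf3 at -0.64 (week 10) on the log2 scale. The median log2 change of the 14 markers was 1.29, 1.57, 2.06 and 1.51 at weeks 6, 8, 10 and 12, against -0.08, -0.04, 0.0070 and -0.00046 over all tested genes. The highest marker was Elf5, a factor of the alveolar lineage, at weeks 6 (2.39) and 8 (2.24), the adhesion molecule Epcam at week 10 (2.48) and the epithelial factor Ehf at week 12 (2.95). Abpb was at 6.03, 8.95, 11.59 and 9.78, and 2310057J18Rik at 7.88, 11.95, 9.39 and 9.16. Ankrd22 was at 6.48 and 8.55 at weeks 6 and 8, and Acox2 at 3.33, 4.01 and 3.38 at weeks 6, 8 and 12. Pkhd1l1 was at 1.01, -2.51 and -0.59 at those weeks. Where FVB was at 0, the bounds depended on the floor, and with 3 packets that of Ankrd22 at week 10 (3.10-fold) was below the fitted change of Epcam.

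**Figure D2:**
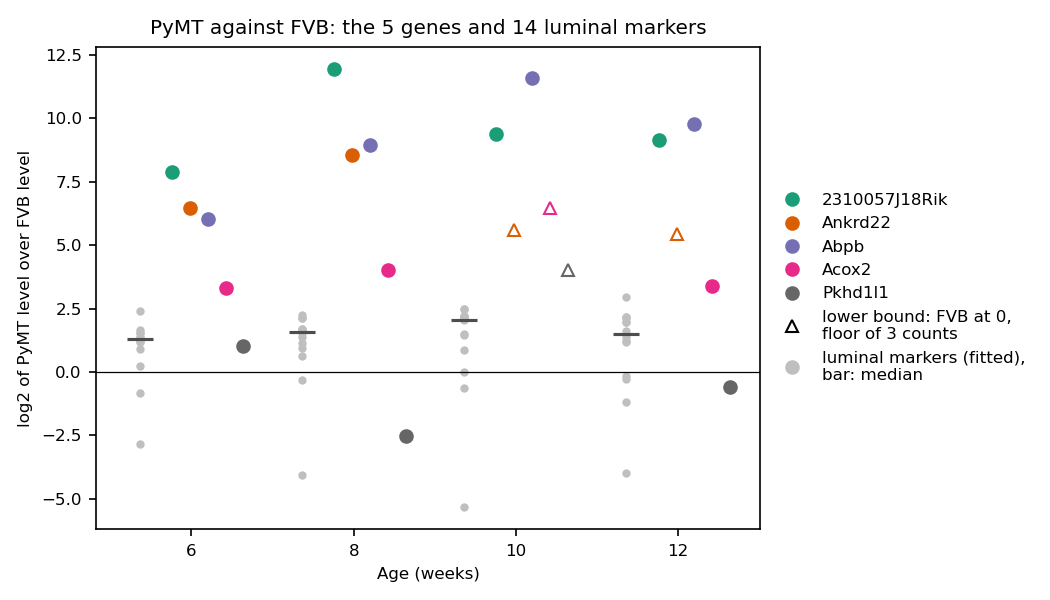
Log2 ratio of the mean PyMT to the mean FVB level by age in weeks for the 5 genes (coloured points), with triangles where FVB was at 0 and the ratio is a lower bound from a floor of 3 counts per library. As the FVB libraries of week 10 had packets, a floor of 3 packets lowers the bounds of that week from 48.4 to 3.10 (Ankrd22), 87.3 to 5.60 (Acox2) and 16.1 to 1.03 (Pkhd1l1), and that of Ankrd22 at week 12 from 42.9 to 11.5. Grey points are the fitted log2 fold changes of 14 luminal epithelial markers and the bars their medians, which lie between 1.29 and 2.06.

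The next question was whether the genes changed between stages within the PyMT mice, a contrast that the rule did not use. Over the 4 weeks edgeR's quasi-likelihood test called none of the 5 (adjusted p = 0.880 for 2310057J18Rik and 1.00 for the other 4, Benjamini-Hochberg adjusted). Among all 14918 genes, 2 passed (0.0134%), and 800 had an unadjusted p under 0.05. Late carcinoma at week 12 was set against hyperplasia at week 6. The log2 change of Abpb was 1.32 with a 95% interval from -0.53 to 3.17 and an adjusted p of 0.721. Those of the other 4 were -0.04 (-2.94 to 2.87) for 2310057J18Rik, -0.62 (-1.61 to 0.36) for Ankrd22, -0.22 (-1.31 to 0.87) for Acox2 and -1.16 (-3.73 to 1.40) for Pkhd1l1, all with adjusted p of 0.769 or more. In this comparison 15 genes of the table passed (0.101%), 10 of them higher (0.067%) and 5 lower (0.0335%) at week 12. With no filter on low counts, edgeR did call 2310057J18Rik (any week and week 10 against 8) and Abpb (any week and week 12 against 6), where the standard error of Abpb was 0.189 in place of 0.870.

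From adenoma/MIN at week 8 to early carcinoma at week 10, 2310057J18Rik had a log2 change of -3.65 (SE 1.51, 95% interval -6.86 to -0.44) and Pkhd1l1 one of 2.94 (SE 1.28, 0.21 to 5.67). Their unadjusted p-values were 0.0285 and 0.0365 and both adjusted p-values were 1.00. Without PyMT week 8 replicate 2 the change of 2310057J18Rik was 2.11, with the opposite sign. No gene of the table passed here by edgeR (0%), with 313 at an unadjusted p under 0.05, and DESeq2 called 5. The intervals of both comparisons are wide, and the tests do not show that the levels were alike between stages.

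The spread between mice of the same week was large. The biological coefficient of variation within PyMT weeks was 1.05 for 2310057J18Rik, 0.906 for Pkhd1l1, 0.697 for Abpb, 0.438 for Acox2 and 0.40 for Ankrd22. The median of all tested genes was 0.313, and 87.7% of them varied less than 2310057J18Rik did. Over all 12 PyMT mice the highest level was 1645 times the lowest for 2310057J18Rik, 52.0 times for Abpb, 11.4 times for Acox2 and 6.18 times for Ankrd22. The lowest library was replicate 1 of week 12 for Acox2 and replicate 2 of week 12 for Ankrd22. Per kilobase of exon the PyMT medians stood in the order Abpb (94.0 CPM per kb), 2310057J18Rik (55.8), Ankrd22 (10.5), Acox2 (7.67) and Pkhd1l1 (0.201). Neighbours in this order overlapped in their ranges over the 12 mice, except Acox2 and Pkhd1l1.

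2310057J18Rik and Abpb had their highest and their lowest PyMT level in the same mice, replicates 2 and 3 of week 8. Across the 12 PyMT mice their log2 levels had a Pearson r of 0.795 (permutation p = 0.0027, adjusted p = 0.0810 over 60 relations) and a Spearman rho of 0.643 (permutation p = 0.0278, adjusted p = 0.215). Without the 2 mice farthest from the median of 2310057J18Rik r was 0.383, so the relation rested on them. For the marker lists that follow, the 2 mice left out were those farthest from the median of the list. They need not be the same 2 mice. 2310057J18Rik also had an r of -0.786 with the mean of the fibroblast markers (permutation p = 0.00236, adjusted p = 0.0810, rho -0.706 with permutation p = 0.0132 and adjusted p = 0.215), and -0.45 without the 2 farthest mice. With the luminal markers its r was 0.229 (permutation p = 0.467, adjusted p = 0.701, rho 0.154 with permutation p = 0.634 and adjusted p = 0.871), and 0.215 without the 2 farthest mice. With the adipocyte markers r was -0.471 (permutation p = 0.12, adjusted p = 0.431, rho -0.245 with permutation p = 0.447 and adjusted p = 0.865), and 0.036 without the 2 farthest mice. No relation among the 5 genes or with the marker lists passed the adjustment.

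**Figure D3:**
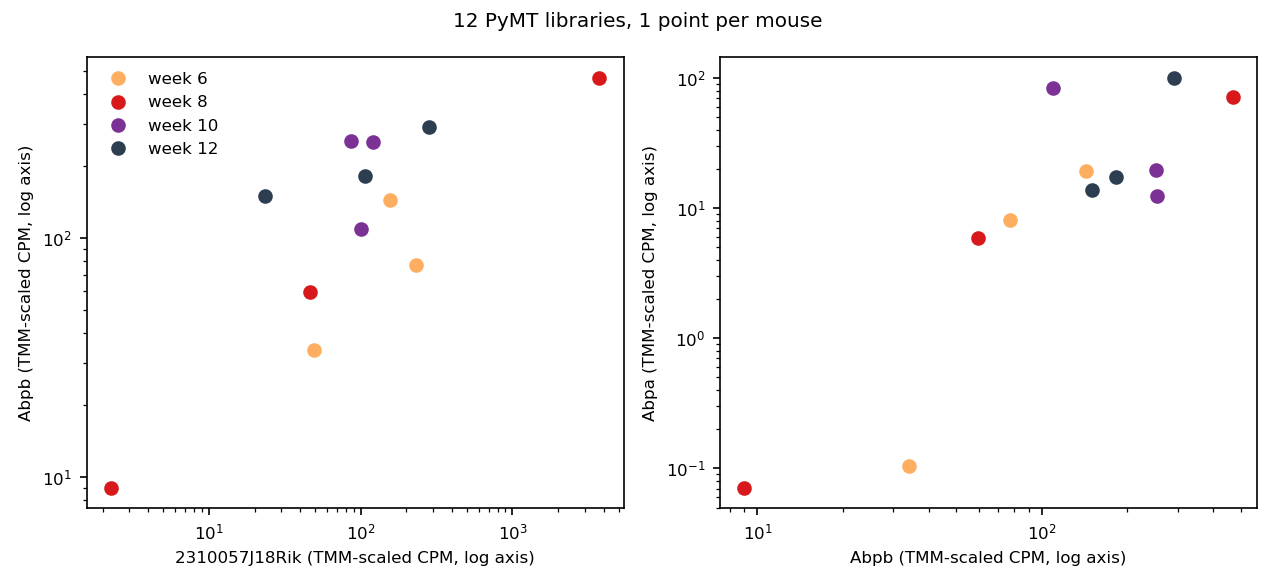
Level of Abpb against 2310057J18Rik (left) and of Abpa against Abpb (right) in the 12 PyMT mice, as TMM-scaled CPM on log axes, coloured by age. The mice of week 8 hold both the highest level of 2310057J18Rik and Abpb (3730 and 468 CPM) and the lowest (2.27 and 9.00 CPM).

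The genes whose level across the 12 PyMT mice was most like each of the 5 are given as a description, by Pearson r, with libraries, depth and cell content shared. For 2310057J18Rik they were Etnk1, an ethanolamine kinase (0.940), Slc12a2, the Na-K-Cl cotransporter of secretory epithelium (0.898), and Bhlha15, a transcription factor of serous secretory cells (0.895). For Abpb they were carboxypeptidase D, Cpd (0.916), Ehf (0.916) and Etnk1 (0.885). Etnk1 thus stood in both lists, at 353 to 986 CPM in PyMT. As 2310057J18Rik and Abpb had their highest and lowest levels in the same mice of week 8, these lists are not independent. All genes named here were picked for the highest r among the tested genes, so its size follows from the choice. Bhlha15 was at 46.2 to 141 CPM in PyMT with an FVB median of 1.35 CPM. For Ankrd22 they were Idi1 of the sterol pathway (0.881), Gnrh1, the gonadotropin-releasing hormone (0.876), and Qsox1, a secreted sulfhydryl oxidase (0.873). Those of Acox2 were 2810025M15Rik (0.942), Was, an actin regulator of blood cells (0.937), and SNORA66 (0.917), none of them above 17.1 CPM in PyMT. Those of Pkhd1l1 were Arid1b (0.920), Mrpl14 (0.909) and Rsph3a (0.900).

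Lists of related genes were read in the comparison of PyMT with FVB, where DEGs passed 0.05 for the adjusted p of edgeR's quasi-likelihood test and changed more than 2-fold. Among all tested genes, DEGs were higher in 3.58%, 3.57%, 4.83% and 7.75% and lower in 6.46%, 6.37%, 9.09% and 13% at weeks 6, 8, 10 and 12. The share of higher genes among DEGs was 35.6%, 35.9%, 34.7% and 37.4%, and with library size in place of TMM 54.4%, 52.7%, 50.8% and 57.4%. That scaling moved the median log2 change of all genes to 0.19, 0.20, 0.30 and 0.32.

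The other genes of peroxisomal fatty acid oxidation, the pathway of Acox2, were lower in PyMT or did not pass the test. Of 21 tested genes of this list besides Acox2, 0 were higher at any week and 2, 6, 8 and 10 were lower at weeks 6, 8, 10 and 12. The median log2 change of the list was -0.44, -1.0, -0.75 and -1.02. Among those that fell at week 12 were the fatty acid transporter Abcd2, from 454 ± 106 to 20.7 ± 7.78 CPM (log2 -4.45, adjusted p = 0.00022), the thiolase Acaa1b (-2.37, adjusted p = 0.0232) and the phytanic acid hydroxylase Phyh (-1.75, adjusted p = 0.00147). Acox3, an acyl-CoA oxidase related to Acox2, fell by 1.02 on the log2 scale (adjusted p = 0.0188). Acox3 went from 76.5 ± 5.99 to 37.3 ± 12.0 CPM while Acox2 stood at 1.95 ± 0.492 and 20.3 ± 14.7. All 10 adipocyte markers were lower too at each week, with medians of -2.55, -4.02, -4.75 and -4.39, and their part in the falls was not tested. With library size in place of TMM, 6 of the list were lower at week 12 and 0 higher.

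**Figure D4:**
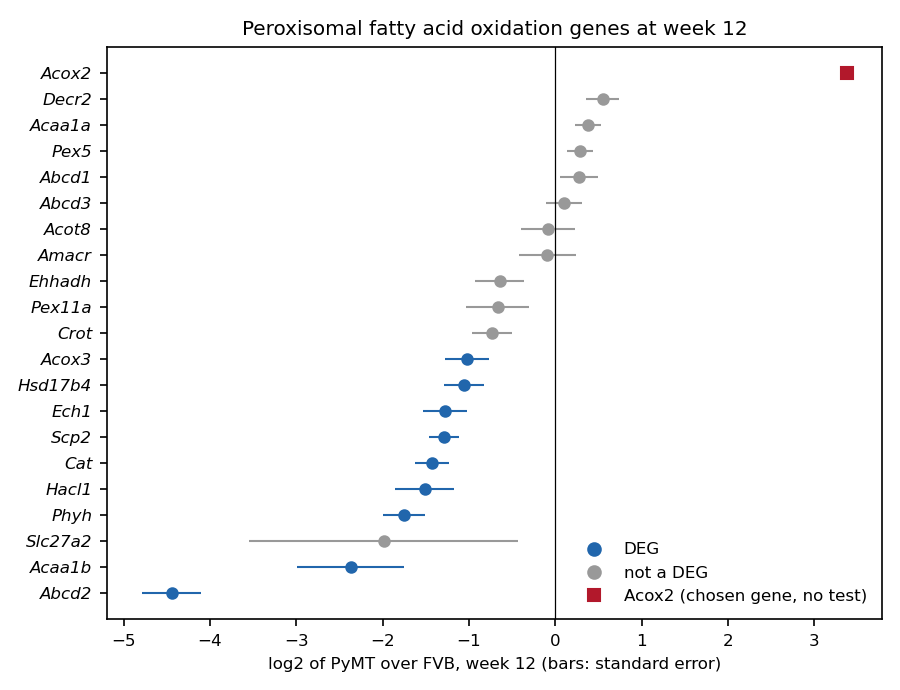
Log2 fold change, PyMT over FVB at week 12, of 20 tested genes of peroxisomal fatty acid oxidation, with standard errors from the fit to 3 mice per group, and the log2 ratio of means of Acox2 (square, chosen on this contrast, no test). Acox2 is at 3.38, Decr2, the highest of the rest, at 0.55, and Abcd2 at -4.45.

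The salivary and lacrimal secretory genes, to which Abpb belongs by its known sites, changed unevenly. Of 18 listed entries 4 passed the filter on low values, of which 2 were higher and 1 lower at each week. At week 12, Bhlha15 went from 2.39 ± 1.05 to 83.3 ± 11.8 CPM (log2 5.13, adjusted p = 0.000147) and the water channel Aqp5 from 31.9 ± 9.73 to 418 ± 176 (log2 3.74, adjusted p = 0.000392). The amylase gene Amy1 fell from 152 ± 56.5 to 9.97 ± 6.71 CPM (log2 -3.91, adjusted p = 0.00108), and Egf had a log2 change of 0.81 (adjusted p = 0.511). The entries below the filter, salivary products among them, were low but not alike. At week 12, Smr3a, Prb1 and Dcpp3 were at 0 in PyMT, and Smr2 and Prol1 were at 0.201 ± 0.193 and 0.207 ± 0.270 CPM. Dcpp2 was at 7.07 ± 5.30 CPM in PyMT and Dcpp1 at 2.60 ± 4.07, both with 0 in FVB. Pip had its highest PyMT mean at week 8, with 16.1 ± 27.2 CPM against 0 in FVB, and the lactoperoxidase gene Lpo at week 6, with 9.43 ± 9.93 against 0.103 ± 0.178. The summed level of the list was 270 to 764 CPM in PyMT and 88.9 to 246 in FVB, and 3 of its entries had no count in any library.

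Members of the ankyrin repeat domain family passed the test at shares near those of all tested genes. The shares called in either direction were 15.2%, 12.1%, 18.2% and 21.2% at weeks 6, 8, 10 and 12, against 10%, 9.95%, 13.9% and 20.7%. Of 33 tested members out of 48, 2, 0, 1 and 2 were higher and 3, 4, 5 and 5 lower at weeks 6, 8, 10 and 12, with a median log2 change of -0.15, -0.05, -0.05 and -0.07. The largest at week 12 were Ankrd5 (-4.38, adjusted p = 0.000572), Ankrd56 (3.89, adjusted p = 0.0119), Ankrd33b (-2.11, adjusted p = 0.0341) and Ankrd57 (-2.10, adjusted p = 0.00142). With library size as the scaling, 5 members were higher at week 12. Of the polycystin and fibrocystin family, 4 of 10 genes were tested, and 1 was lower at week 6 (Pkd1, log2 -1.20, adjusted p = 0.00685) and none was called at the later weeks. Pkhd1 itself did not pass the filter. It was at 0 in PyMT and 1.60 ± 1.69 CPM in FVB at week 6, 0.0945 ± 0.164 and 0.131 ± 0.227 at week 8, 1.83 ± 3.17 and 0 at week 10, and 0.0726 ± 0.126 and 0 at week 12.

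The nearest protein-coding genes on either side were compared last, to see whether levels changed over the loci. Of 10 neighbours 5 passed the filter on low values. At week 12, Stambpl1, a deubiquitinase gene 26176 bases from Ankrd22, was higher (49.1 ± 6.61 against 16.4 ± 3.82 CPM, log2 1.60, adjusted p = 0.00278), and Fam107a, 36921 bases from Acox2, was lower (0.329 ± 0.396 against 6.57 ± 3.02, log2 -4.27, adjusted p = 0.0225). Kctd6, on the other side of Acox2 at 1944 bases, had a log2 change of -0.03 (adjusted p = 0.964). The neighbours of Pkhd1l1, Eny2 and Ebag9, had changes of 0.44 and 0.74 (adjusted p = 0.315 and 0.123). Themis and Gm9996 beside 2310057J18Rik, Lipn beside Ankrd22 and Abpg beside Abpb were at 0 to 0.430 CPM in both genotypes at week 12, when Abpa was at 44.0 ± 49.3 CPM in PyMT. Of these 4, Abpg had a higher level at week 10, given above with Abpb.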

How the data were processed

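The authors trimmed adapters from directional, ribosome-depleted RNA-seq reads, aligned them to mm9 with GSNAP, counted them with HTSeq for each Ensembl gene, and the raw counts were deposited with no normalization. The strand setting of HTSeq, the annotation release and the treatment of duplicates are not given in the sources used here. Every count column was matched to 1 sample by its name. Library totals ran from 6969375 to 13516601, and replicates differed by more than sampling noise in each of 24 pairs (chi-square per gene 20.4 to 238). Intervals and floors cover counting error only.

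Symbols and coordinates came from GENCODE M1 and promoter windows from RefSeq. The 14918 genes that reached 1 CPM in 12 or more of 24 samples were fitted with edgeR 4.0.16 in R 4.3.3 (quasi-likelihood test, TMM, Benjamini-Hochberg), with weeks tested within the 12 PyMT samples and PyMT against FVB within each week. Calls had to pass 0.05 (adjusted p) and change more than 2-fold, without the fold for the test over 4 weeks. Correlations used log2(TMM CPM + 0.5) and 100000 permutations, two-sided. A packet was a peak at 5 counts or more in a histogram of the counts of all genes (smoothing SD 1.5). Figures and summaries used Python 3.11.15, NumPy 2.4.6, SciPy 1.17.1, pandas 2.3.3 and matplotlib 3.10.9. The fit was tested on simulated data.

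Alternatives were DESeq2 1.42.0, other scaling, no filter, all 24 samples, a replicate block and each replicate left out. Voom with quality weights (limma 3.58.1), counts over packet size, a floor of 3 packets and the libraries without packets were added after the data had been seen. The 5 genes and the lists were chosen with earlier results of these data known. Genes named were the 5, their nearest protein-coding neighbours, for each the 3 tested genes with the highest Pearson r over the PyMT samples, up to 4 called genes per pathway list with the largest change at week 12, and the genes with the highest PyMT level at the limit of the rule. Acox3, Lipm, Abpa, Pkhd1, the luminal markers with the highest value and the salivary genes were named after their values were seen. The values of 1 gene of the peroxisomal list are not reported here. Paralogs by protein alignment were not analysed here. Replicate numbers come from the titles, and nothing says that they pair mice. The study's methods name separate mice, so p-values measure the spread between mice. Litters are not analysed here.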

Additional observations from a re-analysis of the deposited data

How the results depend on the processing

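The calls on the 5 genes were recomputed under 20 alternatives for each of 3 tests within PyMT, of which 3 gave no adjusted p (DESeq2 for 2310057J18Rik, with log2 changes of -0.058 for 12 against 6 and -3.67 for 10 against 8). In 276 of the rest the call was kept, and the direction too where the test had one. In 4 a call was gained and in 17 the sign changed, with no call on either side. The test over 4 weeks has no direction, so its rows could not change sign. The gained calls all came without the filter on low counts, for 2310057J18Rik (any week, adjusted p = 2.08e-133, and 10 against 8, -3.63) and Abpb (any week, adjusted p = 1.79e-10, and 12 against 6, 1.32), where the standard errors were 0.198 and 0.189 in place of 1.51 and 0.870. The sign of 2310057J18Rik changed at 10 against 8 with voom (2.72), and that of Acox2 at 12 against 6 with counts over packet size (0.061). With each replicate left out the log2 change from week 6 to 12 ran from -1.14 to 0.46 for 2310057J18Rik and from -0.61 to 0.28 for Acox2, and that from week 8 to 10 from -4.23 to 2.11 for 2310057J18Rik, from -0.39 to 2.61 for Abpb and from -0.12 to 0.23 for Acox2. The ratio of Pkhd1l1 at week 12 ran from -1.80 to 0.10. The cause was not tested.

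Counts of genes that passed moved more. Over all weeks 2 genes passed, against 121 by DESeq2, 479 with no filter, 8 by voom, 29 with counts over packet size, 0 in the fit of all 24 samples, and 0 to 37 with a replicate left out (37 without PyMT week 10 replicate 3). For week 12 against 6 the count was 15, against 129, 273, 27, 38 and 0 in the same order, and 2 to 43 (43 without PyMT week 10 replicate 3, 2 without week 6 replicate 3, week 8 replicate 1 or week 12 replicate 1). For week 10 against 8 it was 0, against 5 by DESeq2, 99 with no filter and 0 to 0 with a replicate left out. For PyMT against FVB it was 1484 at week 8, against 2489 by DESeq2, 2366 by voom and 2615 with counts over packet size. With a replicate left out it was 857 to 1606, 513 to 1473, 1262 to 2370 and 2189 to 3438 at weeks 6 to 12.

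The replicate block gave 10 genes over all weeks, 26 for week 12 against 6 and 0 for week 10 against 8, and turned 2310057J18Rik from week 6 to 12 to 0.34. It called none of the 5 genes. Same-numbered PyMT and FVB mice of a week had correlations of deviations from -0.0602 to 0.242 (median 0.0670) over 12 pairs, against -0.177 to 0.0845 (median -0.0304) over 24 differently numbered pairs. Of the 12 pairs 5 were over 0.1, and 16 of 24 mice correlated best with their own number, which is a hint from the data and not the design. PyMT mice of different weeks, the samples of the blocked tests within PyMT, had -0.0999 to 0.0899 over 18 same-numbered pairs. As not every pair was over 0.1, the samples were taken to share only a number, which does not exclude a pairing of PyMT with FVB mice.

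Of 120 recounts of the lists 103 stayed within 1.5 times. No relation passed with a pseudocount of 2 CPM either. Depth limits the FVB levels, which stood on 0 to 18 counts per library for 2310057J18Rik, Ankrd22 and Abpb. The packets limit each FVB value that was 0 or below the packet size of its library. Of the FVB libraries, 1, 2, 3 and 1 had packets at weeks 6, 8, 10 and 12.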
